A study of Homo sapiens with 8 samples.

Results

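Epithelial-to-mesenchymal transition (EMT) is the programme by which sheet-forming epithelial cells lose their junctions and gain motility, and a small group of transcription factors drives or opposes it. The 10 genes described here were chosen by name: the repressors SNAI1, SNAI2, ZEB1 and ZEB2 and the factor TWIST1, the epithelial factors OVOL1 and OVOL2, and the mesenchymal markers VIM, CDH2 and FN1. Of these, 8 were measured among 17561 genes, and TWIST1 and VIM were not analysed here. They were measured by RNA-seq in HepG2, a human hepatocarcinoma line, harvested 48 h after receiving either pGRHL2, a GRHL2 expression plasmid, or the vector pcDNA3, with 4 libraries numbered 1 to 4 for each plasmid. The insert of pGRHL2 was a flag-tagged GRHL2 cDNA driven by the EEF1A1 promoter, with EGFP on the same transcript, so that the plasmids differed by more than GRHL2. All cells were grown on gelatin in William's E medium with dexamethasone and insulin and were transfected transiently with JetPrime. The study describes the libraries of a plasmid as independent biological replicates of the cell line.

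As background, SNAI1 (SNAIL), SNAI2 (SLUG), ZEB1 and ZEB2 are zinc finger repressors that bind E-box sequences in the promoters of epithelial genes such as CDH1, the gene of E-cadherin. OVOL1 and OVOL2 are zinc finger factors that repress EMT drivers, among them ZEB1, and GRHL2, a grainyhead-like factor of epithelia, is known to oppose ZEB1 as well. CDH2 encodes N-cadherin and FN1 the matrix protein fibronectin. Both are used as mesenchymal markers, although fibronectin is also a major secretory product of hepatocytes.

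The deposited values were log2 expression per transcript length, to which every level below refers. Difference and log2 FC always mean pGRHL2 minus pcDNA3 on the same scale. For every gene the pGRHL2 and pcDNA3 values with the same number had 1 mean, shared by all 4 numbers, so that libraries were compared as 4 pairs and the SD within each plasmid was the same by construction. A gene was called when the limma fit, in which replicate numbers formed a block, gave a Benjamini-Hochberg adjusted p under 0.05 over all genes tested. The sign-flip test (exact, two-sided) of 4 pair differences cannot go below 0.125 and is given for single genes. Read counts were not analysed here. After adding back the log2 of the mean transcript length in kilobases, the lowest gene lay at 0.06 and the 1st percentile at 0.34. The latter lay next to the log2 of 10 reads over 8 libraries, 0.32, which was the authors' filter. The restored values were therefore read as an estimate of log2 normalised reads per library, which summed to 15451395 reads per library.

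The transfected gene followed the plasmid labels. The GRHL2 differences were 8.97, 9.51, 10.26 and 9.18 in pairs 1 to 4, a log2 FC of 9.48 ± 0.57 (SD, n = 4 pairs). The hepatocyte markers ALB, AFP, TTR, APOA1, APOB, TF, SERPINA1 and FGB were all measured, at mean levels from 9.83 to 17.1, and 0 of 8 were called (1 at an unadjusted p under 0.05). Their summed level lay between 18.2 and 18.4 in pGRHL2 and between 18.1 and 18.3 in pcDNA3. Of 9 markers of fibroblasts, endothelial cells and leukocytes, 4 were measured. Their summed level lay between 6.03 and 6.09 in pGRHL2 and between 6.01 and 6.07 in pcDNA3. One of them, PDGFRA, was called, with a log2 FC of 0.087 ± 0.024 (SD, n = 4 pairs; adjusted p = 0.039) at about 5.71 estimated reads per library, and leaving out any replicate lost the call (adjusted p = 0.176, 0.102, 0.103 and 0.113 without pairs 1 to 4).

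**Figure D1:**
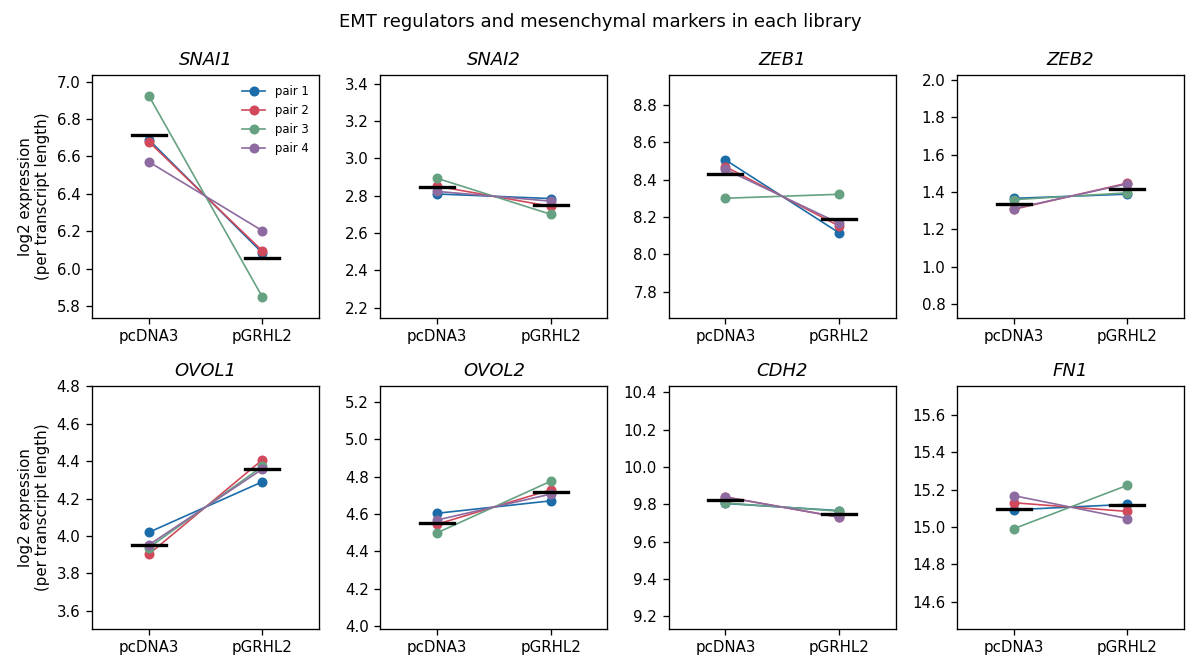
Levels of the 8 measured genes (log2 expression per transcript length) in each pGRHL2 and pcDNA3 library, with same-numbered libraries joined by lines and black bars at the means. All panels span the same range. SNAI1 was lower and OVOL1 was higher in pGRHL2 in all 4 pairs, whereas the FN1 pairs ran in both directions.

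SNAI1 fell and OVOL1 rose in cells that received pGRHL2, and the other 6 measured genes were not called. Over all genes, 297 of 17561 genes were called higher (1.69%) and 88 were called lower (0.501%), 385 in all (2.19%). The 8 genes had a median log2 FC of -0.026, beside 0.0017 over all genes. Of the 8 genes, 3 were higher and 3 were lower in every pair, that is, the values of the plasmids did not overlap for 6 of 8 genes, against 24.0% of all genes (13.4% higher and 10.5% lower). An adjusted p under 0.05 was reached by 1 gene in each direction, and an unadjusted p under 0.05 by 3 genes in each direction, beside 16.0% of all genes in either direction.

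SNAI1 had the largest absolute log2 FC of the 8 genes. Its levels in pGRHL2 libraries 1 to 4 were 6.08, 6.09, 5.85 and 6.20, and in pcDNA3 libraries 1 to 4 they were 6.69, 6.68, 6.92 and 6.57. Every pGRHL2 library lay below every pcDNA3 library, and the gap was widest in pair 3 and narrowest in pair 4. The pair differences of -0.61, -0.58, -1.08 and -0.37 gave a log2 FC of -0.66 ± 0.30 (SD, n = 4 pairs), a change of -36.6% (95% confidence interval of the log2 FC -0.88 to -0.43). SNAI1 was called lower (limma, adjusted p = 0.014, exact sign-flip p = 0.125), and 0.097% of all genes had a larger absolute log2 FC. The call was lost without pair 1 (adjusted p = 0.075) or without pair 2 (0.058), and held without pair 3 (0.031) or pair 4 (0.030). It was also lost when limma did not let the variance follow the level (adjusted p = 0.113), a fit that called 6 of 17561 genes. The level of SNAI1 was in the middle of the table, above 47.4% of genes, with about 143 estimated reads per library. In the bulk cultures used here, fewer cells expressing a gene and less RNA per cell cannot be told apart, nor can transfected cells be told from untransfected ones.

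SNAI2, the paralog of SNAI1, was weakly expressed and was not called. Its levels were 2.78, 2.74, 2.70 and 2.77 in pGRHL2 libraries 1 to 4 and 2.81, 2.85, 2.89 and 2.82 in pcDNA3 libraries 1 to 4. All 4 pGRHL2 values were below all pcDNA3 values, by a log2 FC of -0.094 ± 0.074 (SD, n = 4 pairs; adjusted p = 0.166). The fit placed the log2 FC of SNAI2 between -0.16 and -0.025, at about 13.0 estimated reads per library. In hg38 SNAI2 is a minus-strand gene of chromosome 8 (48917598 to 48921740), with 3.69% of its exon bases shared.

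ZEB1 had a lower mean in pGRHL2 but the plasmids overlapped. The ZEB1 levels were 8.12, 8.15, 8.32 and 8.17 in pGRHL2 libraries 1 to 4 and 8.51, 8.47, 8.30 and 8.45 in pcDNA3 libraries 1 to 4. The difference was negative in pairs 1, 2 and 4 (-0.39, -0.32 and -0.29) and close to 0 in pair 3 (0.021). This gave a log2 FC of -0.24 ± 0.18 (SD, n = 4 pairs; 95% confidence interval -0.41 to -0.07; adjusted p = 0.149; exact sign-flip p = 0.25). Pair 3, the only pair of ZEB1 without a negative difference, had the widest gap for SNAI1, and a link between ZEB1 and SNAI1 was not tested. Without pair 3 the adjusted p of ZEB1 was 0.077, still not called. ZEB1 was the most abundant of the 4 repressors, above 66.9% of genes, with about 799 estimated reads per library.

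ZEB2 was the least abundant member. It read 1.39, 1.45, 1.40 and 1.44 in pGRHL2 libraries 1 to 4 and 1.37, 1.31, 1.36 and 1.31 in pcDNA3 libraries 1 to 4. Here every pGRHL2 library was above every pcDNA3 library, the opposite sign to the other 3 repressors, but the difference was small (0.083 ± 0.062 log2, SD, n = 4 pairs; adjusted p = 0.113) and rested on about 9.19 estimated reads per library. ZEB2 spans chromosome 2 from 144364364 to 144521057 on the minus strand, and 4.97% of its exon bases overlap other genes.

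OVOL1 was called higher in pGRHL2. Its levels in pGRHL2 libraries 1 to 4 were 4.29, 4.41, 4.37 and 4.36, against 4.02, 3.90, 3.94 and 3.95 in pcDNA3 libraries 1 to 4. The groups were separate and the pairs were close to each other, with differences of 0.27, 0.50, 0.43 and 0.41. OVOL1 thus rose by 0.40 ± 0.098 log2 (SD, n = 4 pairs; 95% confidence interval 0.31 to 0.50), a fold of 1.32 (adjusted p = 0.0031, exact sign-flip p = 0.125), and 0.387% of genes had a larger absolute log2 FC. OVOL1 remained called without any one pair, with adjusted p from 0.0076 to 0.032, but not when the variance did not follow the level (0.077). Among the 6703 genes with a mean level below 5, as for OVOL1, 3.34% were called higher and 0.104% lower, whereas among the 10858 genes at 5 or more, where SNAI1 lies, these shares were 0.672% and 0.746%.

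OVOL2 had a smaller difference than OVOL1 and was not called. Its levels were 4.67, 4.73, 4.78 and 4.71 in pGRHL2 libraries 1 to 4 and 4.60, 4.55, 4.50 and 4.57 in pcDNA3 libraries 1 to 4. The values of the plasmids did not overlap, with a log2 FC of 0.17 ± 0.0875 (SD, n = 4 pairs; 95% confidence interval 0.072 to 0.26; adjusted p = 0.083). Leaving out a pair gave adjusted p from 0.147 to 0.254. OVOL2 covers 17956979 to 18059188 of chromosome 20 on the minus strand and shares 2.68% of its exon bases.

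Neither mesenchymal marker was called. CDH2 was at 9.77, 9.73, 9.76 and 9.73 in pGRHL2 libraries 1 to 4 and at 9.80, 9.84, 9.81 and 9.84 in pcDNA3 libraries 1 to 4. The CDH2 values of pGRHL2 were all slightly lower, by -0.074 ± 0.039 log2 (SD, n = 4 pairs), with a 95% confidence interval from -0.20 to 0.048 that included 0 (adjusted p = 0.568). FN1 was at 15.12, 15.08, 15.22 and 15.05 in pGRHL2 libraries 1 to 4 and at 15.09, 15.13, 14.99 and 15.17 in pcDNA3 libraries 1 to 4. The FN1 pairs were divided, pairs 1 and 3 being higher and pairs 2 and 4 lower, with a log2 FC of 0.023 ± 0.15 (SD, n = 4 pairs; 95% confidence interval -0.093 to 0.14; adjusted p = 0.892). FN1 stood above 99.9% of genes, with about 140541 estimated reads per library, and CDH2 above 85.6%. Both are minus-strand genes, CDH2 of chromosome 18 (27932879 to 28177946, 3.58% of exon bases shared) and FN1 of chromosome 2 (215360440 to 215436073, 0% shared). Without pair 3 the log2 FC of FN1 turned negative (-0.047).

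**Figure D2:**
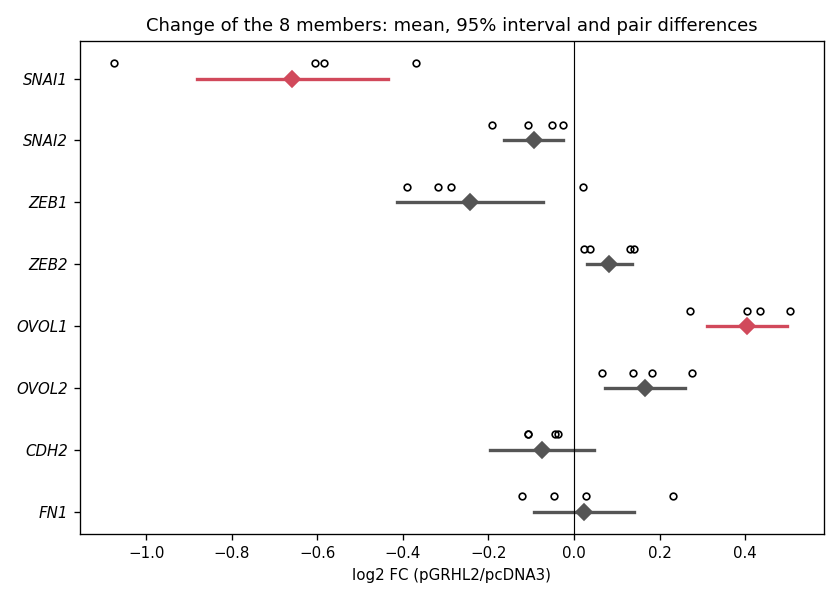
Log2 FC (pGRHL2 minus pcDNA3) of the 8 measured genes, with the 4 pair differences as points, the mean, and the 95% confidence interval of the limma fit with the replicate block. SNAI1 at -0.66 and OVOL1 at 0.40 lie farthest from 0, and the interval of CDH2 and of FN1 includes 0.

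By level per transcript length, averaged over the 8 libraries, FN1 (15.1) was followed by CDH2 (9.78), ZEB1 (8.31), SNAI1 (6.39), OVOL2 (4.64), OVOL1 (4.15), SNAI2 (2.80) and ZEB2 (1.38). The values of neighbours in this order did not overlap over the 8 libraries. Within the SNAI genes the level of SNAI1 was thus far above that of SNAI2, and within the ZEB genes ZEB1 was far above ZEB2, whereas OVOL1 and OVOL2 were at similar levels.

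The spread between pairs has to be read with the rlog transformation, which pulls differences toward 0 where reads are few. The median SD of the 4 pair differences was 0.023 for genes at an estimated rlog level of 0 to 2, 0.043 at 2 to 4, 0.084 at 4 to 6, 0.122 at 6 to 8, 0.122 at 8 to 10 and 0.114 at 10 to 12. Of genes under 100 estimated reads per library, 99.4% had a pair SD smaller than counting error alone gives without shrinkage, compared with 7.45% of genes over 1000 reads. This was true of SNAI2, ZEB2, OVOL1, OVOL2 and CDH2, 5 of the 8 genes. For OVOL1 the pair SD was 0.098, whereas unshrunk counting error at its 31.6 estimated reads would be 0.363. The fold changes of OVOL1, OVOL2, SNAI2 and ZEB2 are therefore shrunken values, and their small SDs do not measure the counting error. SNAI1, ZEB1 and FN1 varied by more than counting error.

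**Figure D3:**
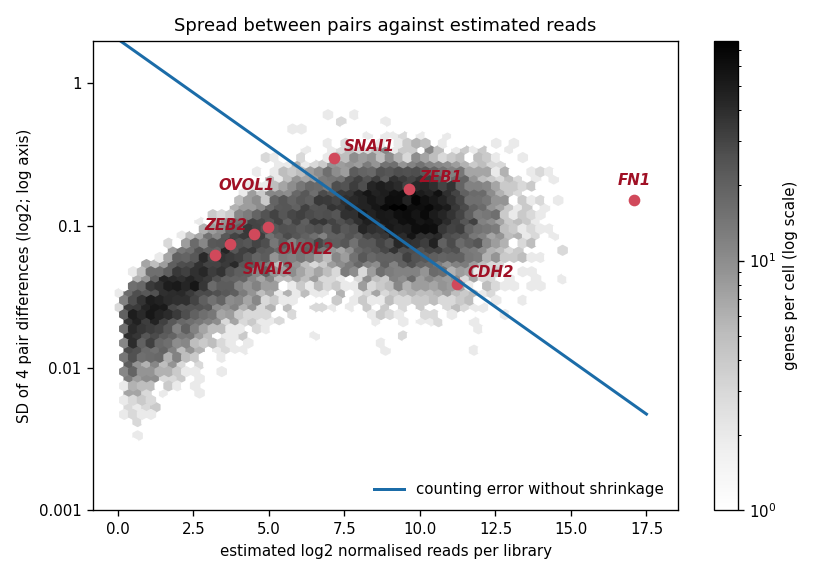
SD of the 4 pair differences (log2, log axis) against the estimated log2 normalised reads per library. Gray cells count genes, red points are the 8 measured genes, and the blue line is the counting error of a difference without shrinkage. SNAI2, ZEB2, OVOL1, OVOL2 and CDH2 lie below the line, as do 99.4% of genes under 100 estimated reads.

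In hg38 with GENCODE release 44, SNAI1 lies on the plus strand of chromosome 20 from 49982980 to 49988886 and shares 0% of its exon bases with other genes. The flanking genes measured in the table, RNF114 (log2 FC -0.10 ± 0.17, SD, n = 4 pairs) and UBE2V1 (0.064 ± 0.063), were not called. ZEB1, also on the plus strand, spans chromosome 10 from 31318495 to 31529814, and 4.58% of its exon bases overlap other genes. Its antisense partner ZEB1-AS1 had pair differences of -0.42, -0.18, -0.19 and 0.26 and was not called (log2 FC -0.13 ± 0.28, adjusted p = 0.571). Counting was done in union mode without strand, which leaves reads over bases shared by ZEB1 and ZEB1-AS1 out of both genes. OVOL1 (chromosome 11, 65787063 to 65797214, plus strand) shares 27.3% of its exon bases with a long non-coding RNA gene on the other strand, which was not analysed here. Where both genes are annotated, such counting leaves reads over those bases out of both. Whether the authors' annotation held both was not analysed here, so that the value of OVOL1 is uncertain to that extent. OVOL1-AS1 differed by 0.025 ± 0.021 log2 (SD, n = 4 pairs; adjusted p = 0.532). Of the 16 neighbouring or overlapping genes measured around the 8 genes, 0 were called (limma, lowest adjusted p = 0.393), with log2 FC between -0.13 and 0.08.

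E-boxes, the sequences that SNAI and ZEB proteins bind, were searched as CAGGTG on either strand (CACCTG on the other) in RefSeq promoter windows of GRCh38.p14, which run from 250 bases before to 50 bases after each start site. The word was found in 20.6% of 35116 windows. A grainyhead word, AACCNGTT, was found in 1.73%. Windows were available for CDH2, FN1, VIM, ZEB1 and ZEB2, 5 of the 10 genes, with 12 windows. CAGGTG occurred in 2 of the 12, both of ZEB1, and AACCNGTT in 0. Among 22 epithelial genes listed as repressed by SNAI or ZEB factors, 12 had 18 windows, and CAGGTG occurred in 10 of these (55.6%), in 8 genes. AACCNGTT occurred in 0 of the 18. These genes were listed as targets of factors that bind CAGGTG, so their share of it is no independent finding. Windows of a gene can overlap, as for MUC1, and then hold the same matches. The stretches below hold 1 match of ZEB1, the repressor with windows that contain the word, 1 match of OCLN (occludin, a tight junction protein) and 5 of CRB3 (a polarity gene). The other matches of ZEB1 and OCLN lie in another window of each gene and are not shown. The stretches are printed 5′ to 3′ on the plus strand, upstream of the start site, with each E-box in capitals. ZEB1 is chr10:31318297-31318416, CRB3 is chr19:6464021-6464220 and OCLN is chr5:69492427-69492546.
ZEB1: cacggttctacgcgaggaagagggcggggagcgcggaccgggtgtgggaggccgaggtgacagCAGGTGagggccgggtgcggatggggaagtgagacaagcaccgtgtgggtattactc
CRB3: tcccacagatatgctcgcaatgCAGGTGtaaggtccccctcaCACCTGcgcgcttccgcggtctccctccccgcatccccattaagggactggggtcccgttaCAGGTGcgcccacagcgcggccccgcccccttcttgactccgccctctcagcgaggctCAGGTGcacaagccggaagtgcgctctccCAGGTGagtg
OCLN: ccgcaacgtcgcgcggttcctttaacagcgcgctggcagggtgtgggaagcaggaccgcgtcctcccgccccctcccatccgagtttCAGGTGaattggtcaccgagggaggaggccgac

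With 5 E-boxes in the stretch shown, CRB3 differed by 0.056 ± 0.083 (SD, n = 4 pairs; adjusted p = 0.702). OCLN, with 1 in the stretch shown, differed by -0.23 ± 0.24 (SD, n = 4 pairs; adjusted p = 0.207). Neither was called, and both were named after their values were seen. A match of these letters is not a measured binding site.

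Of the 22 genes that SNAI or ZEB factors are known to repress, 21 were measured, 2 were called higher and 0 lower, 4 reached an unadjusted p under 0.05 higher and 1 lower, and 6 were higher in all 4 pairs, with a median log2 FC of 0.056. Over all genes 1.69% were called higher and 13.4% were higher in all 4 pairs. An unadjusted limma p under 0.05 was reached by 1611 higher and 1191 lower of all 17561 genes. Both called genes had a mean level below 5, where 3.34% of all genes were called higher and 0.104% lower. ESRP1, an epithelial splicing factor, rose by 0.23 ± 0.021 log2 (SD, n = 4 pairs; adjusted p = 0.0025) and was called without any one pair. At its 16.4 estimated reads per library, unshrunk counting error would be 0.504, so that this SD too is that of shrunken values. From GRHL2 ChIP-seq in HepG2, the study proposes ESRP1 as directly regulated by GRHL2. The study also names CLDN4, another gene of this list, as a known GRHL2 target. Which factor acted on these genes here was not tested. CDH3, the gene of P-cadherin, with about 7.61 estimated reads, rose by 0.12 ± 0.028 (SD, n = 4 pairs; adjusted p = 0.022) but was not called without any one pair (adjusted p = 0.059, 0.097, 0.094 and 0.074 without pairs 1 to 4). CDH1, the best known target of SNAI1, was named after its values were seen. Its differences were 0.43, 0.41, 0.072 and 0.13, higher in all 4 pairs, and the log2 FC of 0.26 ± 0.19 (SD, n = 4 pairs) was not called (adjusted p = 0.129). For CDH1 the pairs with the smaller differences were pairs 3 and 4, whereas for SNAI1 pair 3 had the largest decrease and pair 4 the smallest. With 4 pairs this is a description only, and a link between CDH1 and SNAI1 was not tested.

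Among other factors that drive EMT, 10 of 16 were measured, 1 was called higher and 0 lower, with a median of 0.051. The shares over all genes were 1.69% higher and 0.501% lower, and 3.34% higher at a mean level below 5. FOXF2, a forkhead factor, rose by 0.13 ± 0.034 log2 (SD, n = 4 pairs; adjusted p = 0.014) at a mean level of 1.84 and about 8.76 estimated reads per library. Without pair 1 it was still called (adjusted p = 0.034), and without pairs 2, 3 and 4 it was not (0.059, 0.072 and 0.062). The third SNAI gene, SNAI3 (0.13 ± 0.088, adjusted p = 0.107), and TWIST2 (0.041 ± 0.025, adjusted p = 0.346), both named after their values were seen, were not called.

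Of 14 other factors of epithelial identity, 13 were measured and 1 was called higher and 0 lower, with a median of -0.063. Beside this, 1.69% of all genes were called higher and 0.501% lower. ELF5, an ETS factor of glandular epithelia, differed by 0.40, 0.23, 0.52 and 0.53 in pairs 1 to 4, a log2 FC of 0.42 ± 0.14 (SD, n = 4 pairs; adjusted p = 0.011). At about 99.8 estimated reads per library, its pair SD lay below the unshrunk counting error of 0.204. The ELF5 call held without pair 2 (adjusted p = 0.014) and was lost without pairs 1, 3 and 4 (0.065, 0.068 and 0.0504).

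None of the other mesenchymal markers measured was called lower. Of 26 genes 17 were measured, 2 were called higher and 0 lower, 6 had an unadjusted p under 0.05 higher and 0 lower, 6 were higher and 0 were lower in all 4 pairs, and the median log2 FC was 0.059. The shares over all genes were 1.69% called higher, 13.4% higher and 10.5% lower in all 4 pairs. An unadjusted limma p under 0.05 was reached by 1611 genes higher and 1191 lower of 17561. Of the 17 markers, 7 had a mean level below 5, where higher calls outnumbered lower ones by 224 to 7. LOX, the lysyl oxidase that crosslinks collagen, rose in every pair by 0.48, 0.43, 0.34 and 0.45. Its log2 FC was 0.42 ± 0.06 (SD, n = 4 pairs; adjusted p = 0.0028), and LOX remained called without any one pair. At its 103 estimated reads per library unshrunk counting error would be 0.201, so that this SD too lies below it. FBN1, the gene of fibrillin, with about 50.2 estimated reads per library, rose by 0.18 ± 0.066 (SD, n = 4 pairs; adjusted p = 0.026). That call held without pair 4 (adjusted p = 0.031) but not without pairs 1, 2 and 3 (0.142, 0.110 and 0.111). PDGFRA, given above, moved in the same direction as LOX and FBN1 in this single cell line. It had about 5.71 estimated reads per library, and leaving out any replicate lost its call.

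Among 22 corepressors and chromatin enzymes 21 were measured, 1 was called higher and 0 lower, with a median of -0.016. Here too the shares over all genes were 1.69% higher and 0.501% lower. The called gene was CTBP2, a corepressor recruited by ZEB factors, which rose by 0.18 ± 0.076 log2 (SD, n = 4 pairs; adjusted p = 0.036) at about 22.9 estimated reads per library. CTBP2 was called without pair 3 (adjusted p = 0.0497) and not without pairs 1, 2 and 4 (0.175, 0.132 and 0.109). Of 25 genes of kinases, ligases, deubiquitinases, phosphatases and others that act on these proteins, 24 were measured and 0 were called by limma. An unadjusted limma p under 0.05 was reached by 16.0% of all genes in either direction, and by 0 higher and 2 lower of these 24. The largest differences among these were those of LATS2 (-0.15 ± 0.10, adjusted p = 0.278) and CSNK1D (-0.15 ± 0.028, adjusted p = 0.194).

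All 18 ligands, receptors, SMADs and inhibitors of the TGF-beta pathway, which induces SNAI and ZEB genes, were measured. Of these, 0 were called higher and 1 lower, with a median of -0.021, beside 1.69% higher and 0.501% lower over all genes. SMAD7, an inhibitor of the pathway that is itself induced by it, had pair differences of -0.38, -0.45, -0.40 and -0.18 and fell with a log2 FC of -0.35 ± 0.12 (SD, n = 4 pairs; adjusted p = 0.030). As for SNAI1, pair 4 gave the smallest decrease, and a link between SMAD7 and SNAI1 was not tested. The SMAD7 call held without pair 4 (adjusted p = 0.031) and was lost without pairs 1, 2 and 3 (0.172, 0.140 and 0.111). In the fit in which the variance did not follow the level, none of the genes called in these lists passed, with adjusted p from 0.056 for LOX to 0.191 for PDGFRA. With trends of level, length and GC content subtracted, FOXF2 (0.115), CDH3 (0.098), CTBP2 (0.088) and PDGFRA (0.113) were not called, and the others were.

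**Figure D4:**
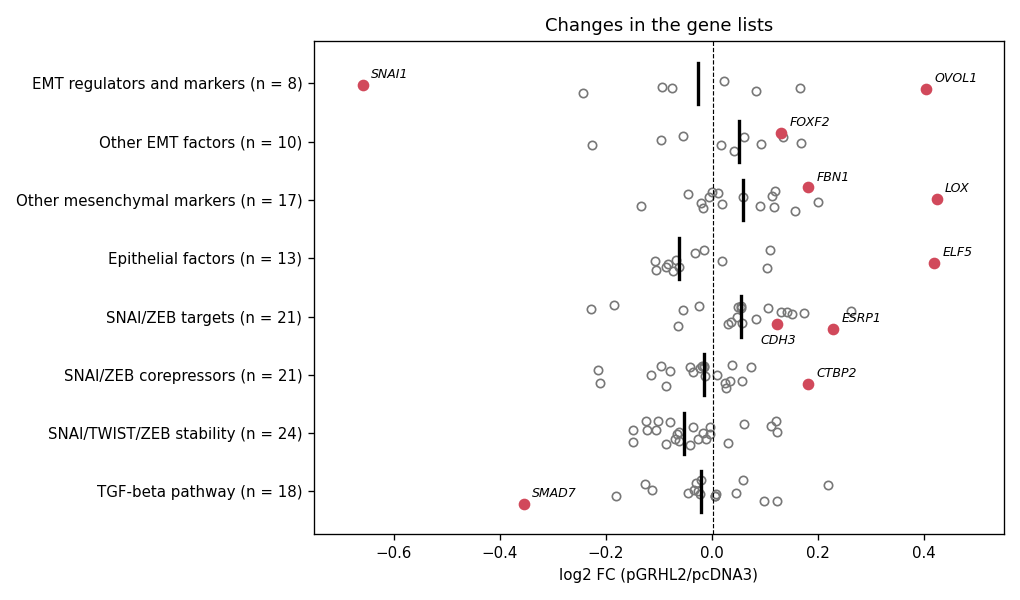
Log2 FC (pGRHL2 minus pcDNA3) of each measured gene by list, with called genes in red and named, list medians as black bars and the median of all genes as a dashed line. SNAI1 and SMAD7 are the called genes to the left of 0, and OVOL1, LOX and ELF5 lie farthest to the right. Hepatocyte and stromal markers are not drawn.

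The genes whose 4 pair differences were nearest to those of SNAI1, by root mean square distance, were HMOX1 (0.151), ID2 (0.217), FOS (0.229), BCL3 (0.252) and DLX2 (0.255), a description over 4 pairs. HMOX1, the stress-induced heme oxygenase, differed by -0.45, -0.76, -0.90 and -0.31, a log2 FC of -0.60 ± 0.27 (SD, n = 4 pairs; adjusted p = 0.018). ID2, an inhibitor of helix-loop-helix factors, fell by 0.48 ± 0.30 log2 (adjusted p = 0.0497), and FOS, an immediate early gene, by 0.44 ± 0.25 (adjusted p = 0.045). For SNAI1, HMOX1, ID2 and FOS pair 3 had the largest and pair 4 the smallest decrease. Because these genes were chosen by their pair differences, the shared sign and pair order largely follow from the choice. HMOX1, ID2 and FOS were called without pair 4 (adjusted p = 0.029, 0.019 and 0.037) and lost the call without pair 1 (0.072, 0.222 and 0.190), pair 2 (0.086, 0.179 and 0.159) or pair 3 (0.072, 0.152 and 0.124). BCL3, an atypical IκB protein (log2 FC -0.60 ± 0.12, adjusted p = 0.0037), and DLX2, a homeobox factor (-0.84 ± 0.14, adjusted p = 7.9e-04), were called without any one pair. None of the 5 passed in the fit in which the variance did not follow the level (adjusted p from 0.055 to 0.181).

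**Figure D5:**
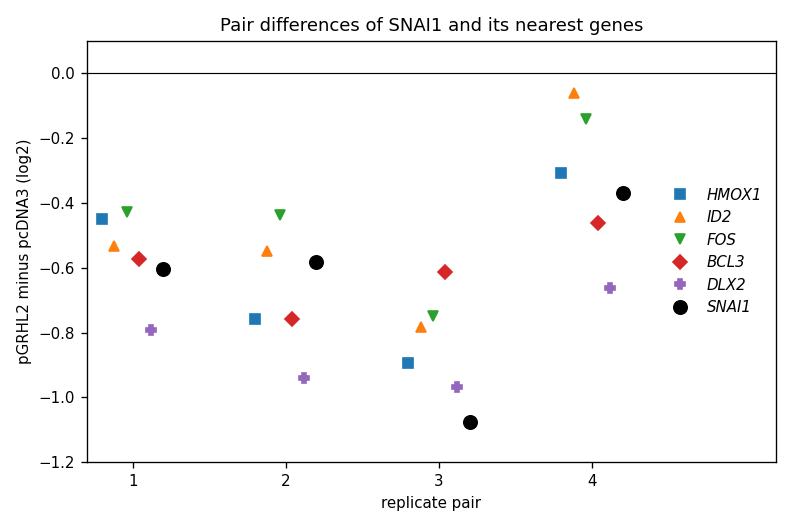
Difference (pGRHL2 minus pcDNA3, log2) in each of the 4 replicate pairs for SNAI1 and the 5 genes nearest to it by root mean square distance. All 24 points are below 0, and SNAI1 ran from -1.08 in pair 3 to -0.37 in pair 4. The 5 genes were chosen by these differences, so their likeness to SNAI1 largely follows from the choice.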

How the data were processed

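Libraries of HepG2 mRNA were sequenced as 150 bp paired ends. By the study's methods, reads were aligned by the authors to hg38 (Hisat2) and counted with HTSeq (union mode, without strand, minimum alignment quality 10), genes under 10 reads over all samples were removed, and rlog values of DESeq2 were divided by mean transcript length. Although called FPKM, the deposited values are log2 (3.71% below 0). The submitters' processing notes name HISAT2 2.2.1, HTSeq 0.9.1 and DESeq2 1.40.2. The study's methods name other versions of Hisat2 and DESeq2, and which were used for these libraries is not known. One value had a stray trailing character, and 0 columns were of other samples.

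The mean of each same-numbered pair was identical in 17561 of 17561 genes (tolerance 1e-09), which shows that the replicate number had been used to adjust the values and makes a correlation check of the pairing void. The fit was limma 3.58.1 (R 4.3.3; lmFit with the replicate block, eBayes with trend, Benjamini-Hochberg over all genes), which leaves 3 residual degrees of freedom. It was tried on data simulated with the observed pair SDs, which does not test the shrinkage at few reads. Estimated reads per library used GENCODE release 44 transcript lengths for 17537 genes. Pair SDs were set against the counting error of these estimates. Intervals of log2 FC are 95% limma intervals, not adjusted for multiple testing.

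The 10 genes, the other lists and the tests were chosen with earlier results of these data known. Named were all 10 genes, GRHL2, up to 5 called genes of each list (otherwise the 2 with the largest absolute log2 FC), the 5 genes nearest to SNAI1 and neighbouring genes. Promoter sequences are from RefSeq (GRCh38.p14).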

Additional observations from a re-analysis of the deposited data

Results flagged for a closer look

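Of 32 results examined, 4 had 1 pair far from the other 3 (gap over range above Dixon's 95% limit for 4 values). Chance gives about 1 in 20. The FBN1 difference was 0.084 in pair 4, with a median of 0.22 in the other pairs. For OCLN pair 4 gave 0.135 and the rest a median of -0.34. Without pair 4 OCLN was called lower (adjusted p = 0.027). The hepatocyte markers FGB (0.77 against 0.13) and TTR (0.55 against -0.028) both stood apart in pair 2.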

How the results depend on the processing

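Counts below are of called genes. The fit without the replicate block counts each of 3 independent residuals for both plasmids, since the values of a pair mirror each other, and its 6 residual degrees of freedom are too many. In it 6 of the 8 genes, 4 EMT factors, 3 epithelial factors, 6 mesenchymal markers, 5 SNAI or ZEB targets, 3 corepressors, 5 stability genes, 5 TGF-beta genes and 3248 of all genes were called (SNAI2, adjusted p = 0.023, ZEB1 0.019, ZEB2 0.017 and OVOL2 0.0052 in addition). With eBayes without trend 6 of all genes and 0 of the 8 genes (SNAI1 0.113, OVOL1 0.077), EMT factors, epithelial factors, mesenchymal markers, targets, corepressors, TGF-beta genes and stromal markers were called. At a mean of at least 5, which kept 4 of the 8 genes, calls were 1 of these, 1 mesenchymal marker, 0 EMT factors, targets, corepressors and stromal markers, and 144 of all genes, of which 43.8% were higher, beside 84.2% of the 588 called at the same total without GRHL2, where 2 epithelial factors were called (ZEB2 0.048). An adjusted p under 0.01 left 1 of the 8 genes, 1 mesenchymal marker, 1 target, 87 of all genes and 0 in the other lists. With arrayWeights 2 epithelial factors, 4 mesenchymal markers and 724 of all genes were called. A mean of at least 0 and robust eBayes each gave 2 epithelial factors, and the same median gave 0 stromal markers. With splines on GC content, on length and on level subtracted, 237 of all genes, 1 target and 0 EMT factors, corepressors and stromal markers were called, and FN1 turned to -0.0034. Apart from the fit without the block, the causes were not tested.

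Leaving out 1 pair gave a GRHL2 log2 FC of 9.22 to 9.65, 1 to 2 of the 8 genes, 0 to 1 EMT factors, epithelial factors, corepressors, TGF-beta genes and hepatocyte markers, 1 to 2 mesenchymal markers and targets, 0 to 0 stability genes and stromal markers, and 87 to 224 of all genes. FN1 ran from -0.047 to 0.072 and was negative without pair 3. No pseudocount was tried, since values were already log2. Fewer than 100 estimated reads and 4 pairs limit SNAI2, ZEB2, OVOL1 and OVOL2, and likewise ESRP1, ELF5, CDH3, FOXF2, CTBP2, FBN1 and PDGFRA. LOX, at about 103 estimated reads, lay just above this limit.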
